A study of Homo sapiens with 10 samples.

Results

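The 10 genes described here are androgen receptor targets given by symbol: KLK2, KLK3, TMPRSS2, FKBP5, STEAP4, HERC3, C1orf116, SLC45A3, NDRG1 and PMEPA1, out of 20037 protein-coding genes on the chromosomes of GRCh38.p14. No rule on their signal was used to choose them, but they were chosen with earlier results of these data known. In each peak list, the summits inside each gene or within 10 kb of its ends were taken. A summit within 1 kb of either end of the gene was called a gene end summit, one deeper inside was called a gene body summit, and one further out was called a flank summit. Chromatin immunoprecipitation with sequencing (ChIP-seq) was done in 22RV1, an established human prostate cancer line, and all 10 samples carry the same treatment label, transfection infection. No label names the antibody. TRIM24, a reader of histone marks that acts on transcription with nuclear receptors, is the protein in the title of the series. The 6 immunoprecipitated libraries were cells with an siRNA against RB1 and their control siRNA, cells with a plasmid for HA-tagged RB residues 245-255, named HA-RB(245-255), and their empty vector, EV(245-255), and cells with a plasmid for an HA-tagged insert labelled only as RBN, HA-RBN, and their empty vector, EV(RBN). For HA-RB(245-255) the genotype field reads as a control group while the title names the construct, and the title was followed. The 4 IgG libraries of the siRNA and 245-255 pairs were not analysed here.

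The androgen receptor is a nuclear receptor that binds DNA after it has taken up testosterone or dihydrotestosterone, and in prostate cells it switches on genes for secreted proteases, membrane transporters and regulators of its own action. Its preferred site is a palindrome of the arm TGTTCT, and many of its sites lie in enhancers away from the gene start. TRIM24 is known as a co-activator of this receptor in prostate cancer, and RB1 encodes the retinoblastoma protein, which holds back E2F factors at promoters. The androgen receptor itself was not immunoprecipitated as far as the labels say, and the lists hold no expression values, so that these genes responded to androgen in these cells could not be checked here.

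The roles of the genes differ. KLK3 encodes prostate-specific antigen, a secreted serine protease of the seminal fluid, and KLK2 encodes a close relative that can activate it. TMPRSS2 is a membrane-bound serine protease whose promoter is often fused to ERG in prostate cancer. FKBP5 encodes a co-chaperone of steroid receptors, STEAP4 a metalloreductase, and SLC45A3 the prostate membrane protein prostein. HERC3 is a ubiquitin ligase of the HECT family, PMEPA1 a membrane protein that dampens TGF-beta signalling, NDRG1 a stress-induced growth regulator, and C1orf116 a gene known as specifically androgen-regulated in the prostate.

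C1orf116 carried the strongest gene end summit of the 10 genes in 5 of the 6 libraries, and in every library that summit lay just before its start. The 250 bases before a start are shown for C1orf116, for STEAP4 and the inner start of HERC3, where several libraries had a summit at the start, and for the neighbours KLK2, which had a summit there, and KLK3, which had none. The inner start of FKBP5 and the outer start of PMEPA1 also had a summit in that stretch, in 1 library each, and are not shown. Sequences are from RefSeq, GRCh38.p14, which held promoters for 8 of the 10 genes, with 13 starts. They read 5′ to 3′ along the gene. Capitals mark letters of the motifs searched.

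C1orf116, chr1:207032757-207033006, minus strand: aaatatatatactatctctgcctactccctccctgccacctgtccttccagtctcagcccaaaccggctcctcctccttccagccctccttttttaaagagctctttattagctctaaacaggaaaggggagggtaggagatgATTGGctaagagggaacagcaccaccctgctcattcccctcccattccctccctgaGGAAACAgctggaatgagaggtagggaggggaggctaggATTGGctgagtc
STEAP4, chr7:88306895-88307144, minus strand: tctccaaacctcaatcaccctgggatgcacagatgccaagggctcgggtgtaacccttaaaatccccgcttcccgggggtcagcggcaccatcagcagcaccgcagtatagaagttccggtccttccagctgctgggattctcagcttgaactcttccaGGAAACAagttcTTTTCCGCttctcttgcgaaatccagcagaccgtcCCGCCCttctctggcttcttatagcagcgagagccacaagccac
HERC3 inner start, chr4:88592230-88592479, plus strand: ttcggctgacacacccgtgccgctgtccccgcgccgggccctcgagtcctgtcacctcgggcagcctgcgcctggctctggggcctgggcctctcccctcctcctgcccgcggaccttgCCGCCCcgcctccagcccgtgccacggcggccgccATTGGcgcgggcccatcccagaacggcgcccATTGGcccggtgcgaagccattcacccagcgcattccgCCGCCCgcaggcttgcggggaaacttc
KLK2, chr19:50873189-50873438, plus strand: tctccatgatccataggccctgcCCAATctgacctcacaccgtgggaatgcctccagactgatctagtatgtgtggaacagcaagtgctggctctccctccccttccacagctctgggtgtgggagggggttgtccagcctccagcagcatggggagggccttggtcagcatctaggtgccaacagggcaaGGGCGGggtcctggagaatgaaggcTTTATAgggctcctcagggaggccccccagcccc
KLK3, chr19:50854665-50854914, plus strand: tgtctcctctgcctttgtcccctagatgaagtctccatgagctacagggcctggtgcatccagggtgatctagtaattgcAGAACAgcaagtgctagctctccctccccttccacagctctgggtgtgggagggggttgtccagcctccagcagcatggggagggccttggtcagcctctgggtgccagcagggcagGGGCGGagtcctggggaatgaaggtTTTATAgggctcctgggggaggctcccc

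Positions are counted back from -1, the base just before the start. In the C1orf116 stretch, the capitals are CCAAT boxes (CCAAT, the element of NF-Y) at -107 to -103 and -12 to -8, both on the opposite strand, and a forkhead core (TGTTTNC) at -51 to -45, also on the opposite strand. Its summits lay 12 bp before the start in RB1 siRNA, 83 bp in control siRNA, 83 bp in HA-RB(245-255), 78 bp in EV(245-255), 77 bp in HA-RBN and 29 bp in EV(RBN), all inside the printed stretch. In the STEAP4 stretch, the capitals are a forkhead core at -91 to -85, an E2F-like element (TTTNNCGC) at -79 to -72 and a GC box (GGGCGG, the element of SP and KLF factors) at -44 to -39. The STEAP4 summits lay 2 bp inside the gene in HA-RB(245-255) and EV(245-255) and 8 bp inside in HA-RBN. At the inner start of HERC3, the printed stretch holds 2 CCAAT boxes and 2 GC boxes, and summits lay 74 bp before that start in HA-RB(245-255), 214 bp in HA-RBN and 295 bp in EV(RBN).

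The KLK3 stretch holds an arm of an androgen response element on the opposite strand at -170 to -165, a GC box at -53 to -48 and a TATA box (TATAAA) on the opposite strand at -28 to -23. The KLK2 stretch holds a CCAAT box at -227 to -223, a GC box at -59 to -54 and a TATA box on the opposite strand at -34 to -29, and no exact match to the arm. The KLK2 and KLK3 promoters were identical at 225 of 294 aligned bases (76.5%), with a longest identical run of 80 bases. Whether reads that match both genes were kept is not given in the sources used here, so fragments at these starts could be split between the pair. The EV(245-255) summit at KLK2 lay 186 bp before its start.

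Both strands of 300 bases around each start were searched, 250 before it and 50 after. Among 22199 such promoters of 15843 genes, 11.7% hold the arm TGTTCT, 9.47% the TATA box, 56.3% the GC box, 34.7% the CCAAT box, 23.7% the ETS core (CGGAAG), 15.3% the forkhead core and 8.32% the E2F-like element. The full androgen response element, 2 such arms facing each other across 3 bases, was also searched and was in 0 of them. Only exact matches to the letters were counted, so elements that differ at a base were missed. No matches in the stretches shown overlapped each other. A match is a run of letters and not a bound site. The promoter with the strongest summits was CpG-poor: C1orf116 had 1 CpG in 300 bases and 53% G and C, against a median of 21 CpG and 62.3% over all promoters. KLK3 had 2 CpG, KLK2 had 3, the outer start of FKBP5 had 3 and that of STEAP4 had 18. SLC45A3 had 26, the outer start of HERC3 had 38, its inner start 34, and the inner start of FKBP5 had 38.

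A value at a summit is given as the number of DNA fragments stacked there, solved from the authors' fold enrichment and p-value, and the enrichment is that number over the library's background of fragments per base. The background was 0.539 in RB1 siRNA, 0.413 in control siRNA, 0.250 in HA-RB(245-255), 0.187 in EV(245-255), 0.634 in HA-RBN and 0.367 in EV(RBN). The 6 lists held between 21666 and 252425 peaks. Each listed interval has 1 summit. The siRNA and 245-255 lists consisted of long intervals, with medians from 18225 to 83581 bp, while those of HA-RBN and EV(RBN) had medians of 522 and 450 bp. A gene without a listed summit in one of the 4 lists with long intervals can therefore lie under an interval whose summit is elsewhere, and that is not evidence of absence. Each group had 1 library, so no difference between conditions was tested, and all intervals cover counting error only.

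Over the 10 genes, gene end summits were found at 4 genes in RB1 siRNA and 3 in control siRNA, against 33.5% and 28.1% of all protein-coding genes in these libraries. They were found at 7 genes in HA-RB(245-255) and 6 in EV(245-255), against 45.5% and 45.4% of all genes. In HA-RBN 8 genes had one and in EV(RBN) 5 did, against 73.4% and 60.2% of all genes. The exact Clopper-Pearson 95% intervals of these shares, from 6.67 to 65.2% in control siRNA and from 44.4 to 97.5% in HA-RBN, contained the share of all genes in each library, so a departure from other genes was not detectable with 10 genes. Counting the flanks and bodies, 9 of the 10 genes had a summit in RB1 siRNA (62.4% of all genes) and 5 in control siRNA (51.7%). All 10 had one in HA-RB(245-255) (85.3% of all genes), EV(245-255) (84.7%), HA-RBN (97.4%) and EV(RBN) (93.4%).

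**Figure D1:**
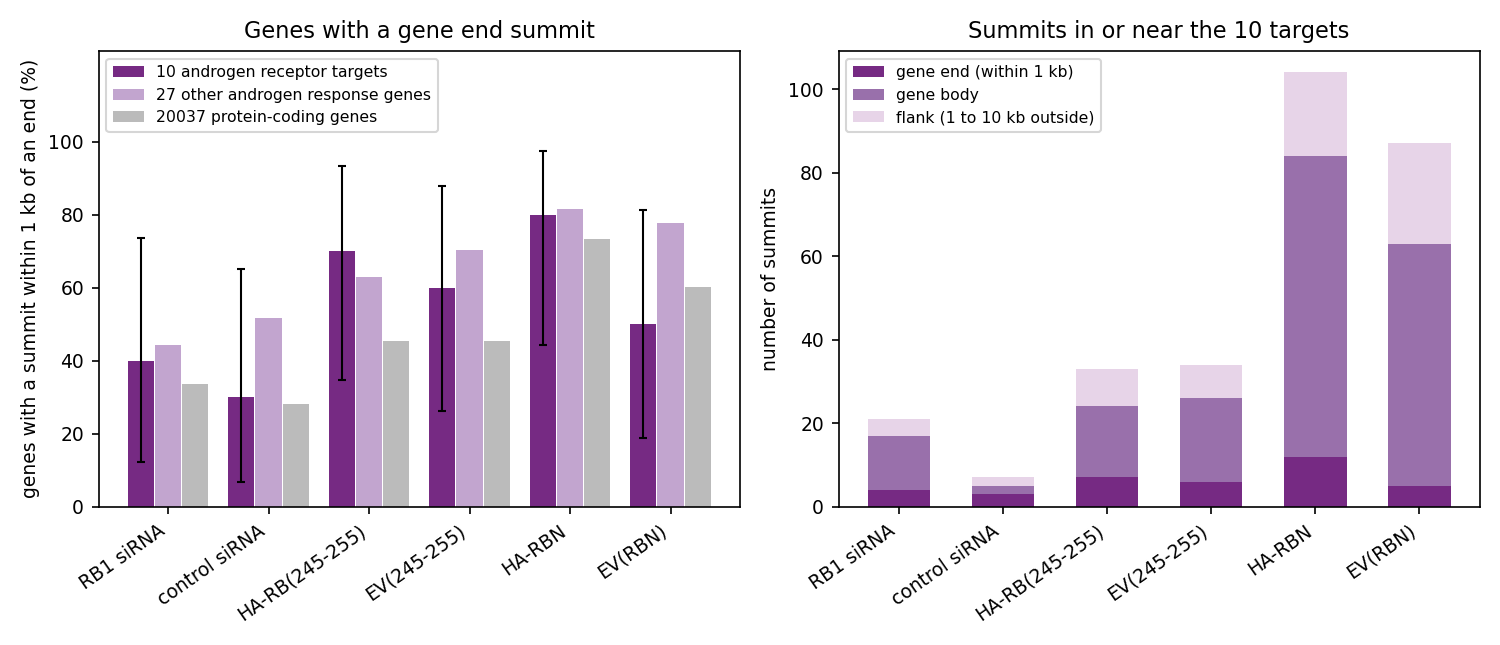
Left: share (%) of the 10 targets, of 27 other androgen response genes and of all 20037 protein-coding genes with a summit within 1 kb of a gene end, by library, with exact 95% intervals on the targets. Right: number of summits at ends, in bodies and in flanks of the 10 targets, where a summit near 2 targets counts for each. The targets' intervals include the share of all genes in all 6 libraries, and bodies hold most summits in HA-RBN (72) and EV(RBN) (58).

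In RB1 siRNA the summits in and near the 10 genes numbered 21, and in control siRNA 7. The 245-255 pair had 32 with HA-RB(245-255) and 34 with its empty vector, and the RBN pair had 103 with HA-RBN and 85 with its empty vector. Per Mb of the genes with their flanks, that was 26.5 summits in RB1 siRNA, against 11.03 over all chromosomes, and 8.83 in control siRNA, against 6.76. The densities were 40.4 per Mb in HA-RB(245-255), against 30.0 over all chromosomes, and 42.9 in EV(245-255), against 24.1. They were 130.0 per Mb in HA-RBN, against 78.8, and 107 in EV(RBN), against 50.8. The densities over all chromosomes use whole chromosome lengths, stretches far from genes included. No density over the windows of all genes was computed, so these values do not set the targets against other genes. The higher count in RB1 siRNA went with a longer list, 35285 peaks in RB1 siRNA and 21666 in control siRNA. It also went with shorter intervals, a median of 51167 bp in RB1 siRNA and 83581 bp in control siRNA. With lists cut to the length of the shortest, the counts were 8 in RB1 siRNA and 7 in control siRNA. The part of list length and interval length in the difference was not tested. All 21 summits of RB1 siRNA and all 7 of control siRNA had a −log10 q-value of 0, so none passed the caller's own correction in the siRNA pair. KLK2 had no summit in RB1 siRNA. In control siRNA KLK2, KLK3, TMPRSS2, STEAP4 and SLC45A3 had none. All 17 gene ends without a summit in control siRNA lay under an interval with its summit elsewhere. One such interval of 91097 bp covered both ends of KLK2 and of KLK3.

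The gene end of C1orf116 (chr1:207018522-207032756, minus strand) stood out by its number of fragments. Its start had 56 fragments in RB1 siRNA and 39 in control siRNA, 60 in HA-RB(245-255) and 66 in EV(245-255), and 36 in HA-RBN and 17 in EV(RBN). Over background that was 104 times in RB1 siRNA and 94.4 in control siRNA, 240.1 in HA-RB(245-255) and 352 in EV(245-255), and 56.8 in HA-RBN and 46.4 in EV(RBN). In each list more fragments were stacked there than at most gene ends with a summit: 77.0% and 67.6% of those had fewer in RB1 siRNA and control siRNA, 97.2% and 97.5% in HA-RB(245-255) and EV(245-255), and 90.0% and 93.0% in HA-RBN and EV(RBN). The authors' −log10 q-value of this summit reached 19.0 in HA-RBN, 6.42 in EV(RBN), 4.31 in HA-RB(245-255), 2.49 in EV(245-255), and 0 in both siRNA libraries.

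NDRG1 (chromosome 8) was the other target with a gene end summit in all 6 libraries. At its upper end, between 103 and 259 bp outside the gene, 47 fragments were stacked in RB1 siRNA and 41 in control siRNA. The same end had 21 in HA-RB(245-255) and 24 in EV(245-255), and 17 in HA-RBN and 7 in EV(RBN). These values were above the median over all gene ends with a summit in each library, which was 28 fragments in RB1 siRNA, 25 in control siRNA, 11 in HA-RB(245-255), 12 in EV(245-255), 10 in HA-RBN and 5 in EV(RBN). A gene end summit in all 6 libraries was thus present at 2 of 10 targets (20%), and at 2627 of all 20037 genes (13.1%). Within NDRG1, a weaker site centred 12539 bp from its lower end had 6 to 8 fragments in 5 libraries and no listed summit in EV(245-255).

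FKBP5 (chr6:35573590-35728583, minus strand) had a gene end summit in 5 libraries, 335 to 598 bp inside its outer start. The site had 50 fragments in RB1 siRNA and 40 in control siRNA, 29 in HA-RB(245-255) and 26 in EV(245-255), and 9 in EV(RBN). HA-RBN had no summit within 1 kb of this start, but its strongest summit anywhere in or near the 10 genes lay 2010 bp inside FKBP5, with 57 fragments and a −log10 q-value of 17.4. EV(RBN) had 16 fragments at 1573 bp inside. FKBP5 had further recurrent sites. A site 860 to 956 bp inside its inner start had 24 fragments in RB1 siRNA, 13 in HA-RB(245-255), 16 in HA-RBN and 7 in EV(RBN), and no listed summit in control siRNA or EV(245-255). In EV(245-255) the nearest summit lay 56 bp before the inner start, with 9 fragments, or 1402 by a second possible solution.

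A flank site of FKBP5 centred 3315 bp before its start lay within 1 kb of an end of the neighbouring gene ARMC12, so it belongs to either gene. It had 18 fragments in HA-RB(245-255) and 13 in EV(245-255), 30 in HA-RBN and 10 in EV(RBN), and no listed summit in the siRNA pair. Beyond the far end of FKBP5, a further flank site had 7 fragments in HA-RB(245-255) and 4 in EV(245-255), and 13 in HA-RBN and 5 in EV(RBN). The 4 libraries of the plasmid experiments listed both flank sites and the siRNA libraries neither. In the siRNA libraries, however, both ends of FKBP5 lay under long intervals. At the start these were 162360 bp in RB1 siRNA and 82246 bp in control siRNA, and at the far end 210121 and 208659 bp. A missing summit near these ends is therefore not evidence of absence.

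**Figure D2:**
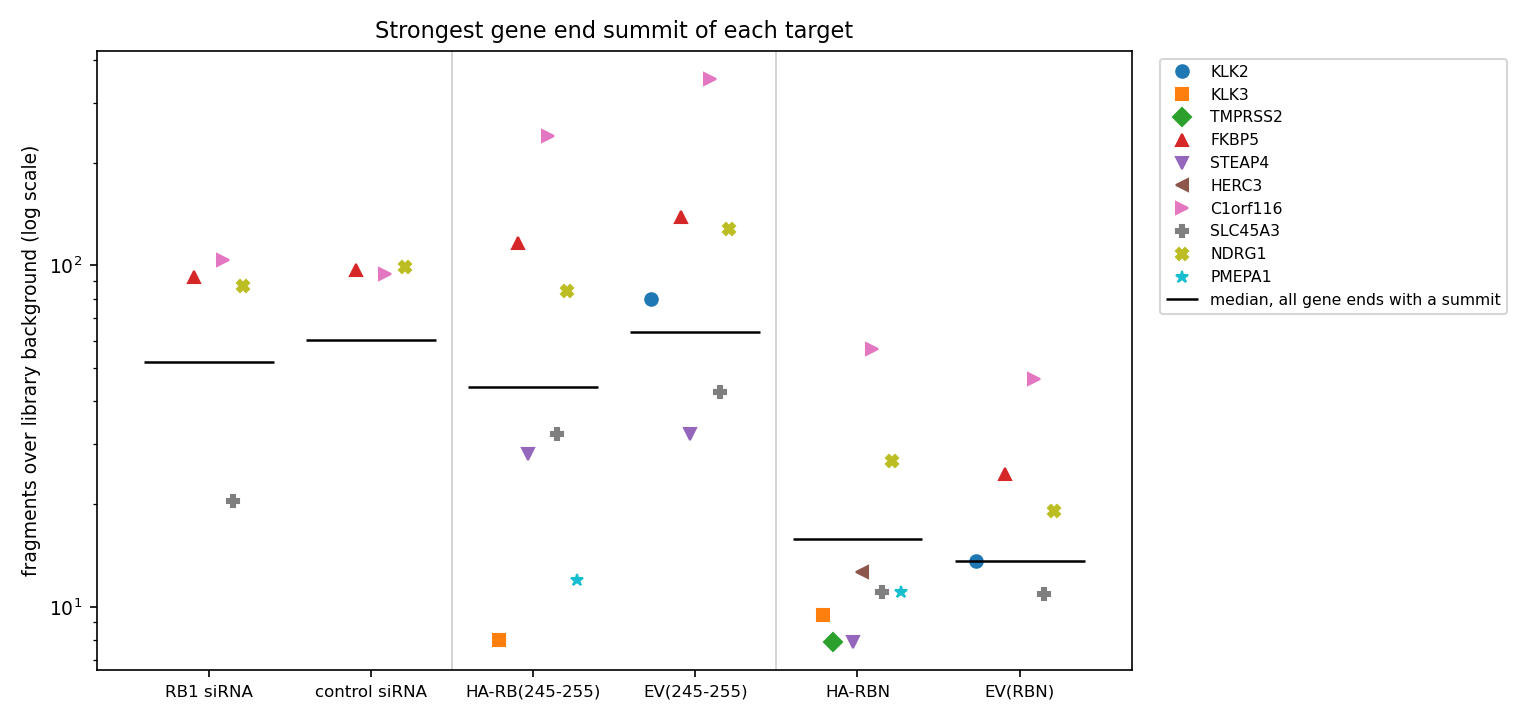
Enrichment (fragments over the library's background, log scale) at the strongest gene end summit of each target, by library; black bars are the median over all gene ends with a summit. A missing symbol means no listed summit within 1 kb of either end. C1orf116, FKBP5 and NDRG1 lie above the median wherever they have a summit, and SLC45A3 and STEAP4 lie below it.

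SLC45A3 (chr1:205657851-205680509, minus strand) had weak summits at its start. There were 11 fragments in RB1 siRNA at 807 bp inside, 8 in HA-RB(245-255) at 188 bp and 8 in EV(245-255) at 354 bp. HA-RBN had 2 summits of 7 fragments inside the start, at 221 and 793 bp, and 1 of 6 fragments 824 bp before it. The summit of EV(RBN) in this region, 3 fragments at 1064 bp inside, fell just outside the 1 kb limit, and its gene end summit was 4 fragments at the far end. Each of the strongest gene end values of SLC45A3 lay below the median over gene ends of its library. A site in the body centred 16008 bp from the start had 7 fragments in HA-RB(245-255) and 4 in EV(245-255), and 8 in HA-RBN.

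STEAP4 (chr7:88270892-88306894, minus strand) had its start summit in 3 libraries, with 7 fragments in HA-RB(245-255), 6 in EV(245-255) and 5 in HA-RBN. The summits of HA-RB(245-255) and EV(245-255) were at the same base. In RB1 siRNA the nearest summit lay 5311 bp before the start with 2 fragments, and EV(RBN) listed 3 fragments at 2205 bp inside. In control siRNA the start lay under an interval of 464256 bp whose summit lay 86729 bp away. A missing summit in control siRNA is therefore not evidence of absence. No gene end value of STEAP4 reached the median of gene ends with a summit in its library.

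KLK3 (chr19:50854915-50860764, plus strand) had little at its ends and more inside and upstream. Its gene end summits were 2 fragments in HA-RB(245-255), 558 bp inside the start, and 6 fragments in HA-RBN, 540 bp beyond the far end. Inside the gene, centred 4122 bp from the start, 4 libraries listed a summit within 97 bp of each other. This site had 25 fragments in RB1 siRNA, 9 in EV(245-255), 23 in HA-RBN and 4 in EV(RBN). The RB1 siRNA value had a second possible solution, at 1864 fragments, and the lower one was used. Control siRNA and HA-RB(245-255) listed none, and in control siRNA both ends of KLK3 lay under the 91097 bp interval above. The HA-RBN summit there had a −log10 q-value of 11.4.

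Upstream of KLK3, where a well-studied androgen-responsive enhancer lies a few kilobases before the start, 3 libraries listed a flank summit. HA-RBN had 19 fragments at 3321 bp before the start, with a −log10 q-value of 5.28, and EV(RBN) had 12 fragments at 4096 bp before it. EV(245-255) had 18 fragments at 3028 bp before it. HA-RB(245-255) listed 1 fragment at 7686 bp before the start, and the siRNA libraries listed no summit in this flank. These positions span about 1 kb, so not all of them were counted as 1 site, and no enhancer coordinates were available to place them.

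KLK2 (chr19:50873439-50880567, plus strand) had a listed gene end summit only in the empty vector libraries, with 15 fragments in EV(245-255), 186 bp before its start, and 5 in EV(RBN), 92 bp inside it. Its start lay under an interval of 63109 bp in RB1 siRNA, 91097 bp in control siRNA and 89969 bp in HA-RB(245-255). The summits of these intervals lay 23320, 21308 and 23352 bp from the start, so a missing summit there is not evidence of absence. HA-RBN had 13 fragments 2940 bp before the start, and HA-RB(245-255) had 9 fragments 3771 bp before it. Both of these lie between the genes, within 10 kb of the far end of KLK3 as well, and were counted once in the totals. TMPRSS2 (chr21:41464305-41508158) had a gene end summit only in HA-RBN, with 5 fragments at each end, 734 bp outside the lower and 126 bp outside the upper one. A body site of TMPRSS2 centred 7036 bp from its upper end had 6 fragments in RB1 siRNA, 6 in HA-RB(245-255) and 4 in EV(245-255), and 5 in HA-RBN and 3 in EV(RBN). Control siRNA listed no summit in or near TMPRSS2, and both of its ends lay under an interval of 417055 bp whose summit lay 76359 bp from the nearer end. Both ends also lay under intervals in HA-RB(245-255), of 29494 and 26020 bp, and in EV(245-255), of 30913 and 16785 bp. In RB1 siRNA the upper end lay under an interval of 95331 bp. A missing summit at these ends is therefore not evidence of absence.

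HERC3 (chr4:88523843-88708539, plus strand) had its strongest summit outside the gene in 5 of the 6 libraries; in HA-RBN the inner start had 13 fragments and the outside site 12. A flank site centred 8783 bp before its start was listed in all 6 libraries, with summits within 129 bp. It had 47 fragments in RB1 siRNA and 42 in control siRNA, 42 in HA-RB(245-255) and 30 in EV(245-255), and 12 in HA-RBN and 16 in EV(RBN). No protein-coding gene end lay within 1 kb of it. At the outer start itself only HA-RBN listed a summit, 8 fragments at 375 bp before it, where the ends of PYURF and PIGY also lie. The outer start lay under intervals of 203825 bp in RB1 siRNA, 301337 bp in control siRNA and 155180 bp in EV(245-255). Their summits were those of the upstream site, so a missing summit at the outer start there is not evidence of absence. At the inner start of HERC3 shown above, 17 fragments were stacked in HA-RB(245-255), 13 in HA-RBN and 4 in EV(RBN), with no listed summit there in EV(245-255) or the siRNA pair. Whether a long interval covered the inner start in those libraries was not determined.

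PMEPA1 (chr20:57648396-57711472, minus strand) had gene end summits in HA-RB(245-255), with 3 fragments near the far end, and in HA-RBN, with 7 fragments 143 bp before its start and 3 near the far end. Its start lay under intervals of 84464 bp in RB1 siRNA, 102701 bp in control siRNA, 21451 bp in HA-RB(245-255) and 25972 bp in EV(245-255). A missing summit at the start in these libraries is therefore not evidence of absence. A flank site centred 7189 bp before the start had 10 fragments in RB1 siRNA and 10 in control siRNA, 4 in EV(245-255) and 8 in HA-RBN. A body site centred 15482 bp from the far end had 8 fragments in RB1 siRNA, 4 in EV(245-255), 7 in HA-RBN and 4 in EV(RBN).

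**Figure D3:**
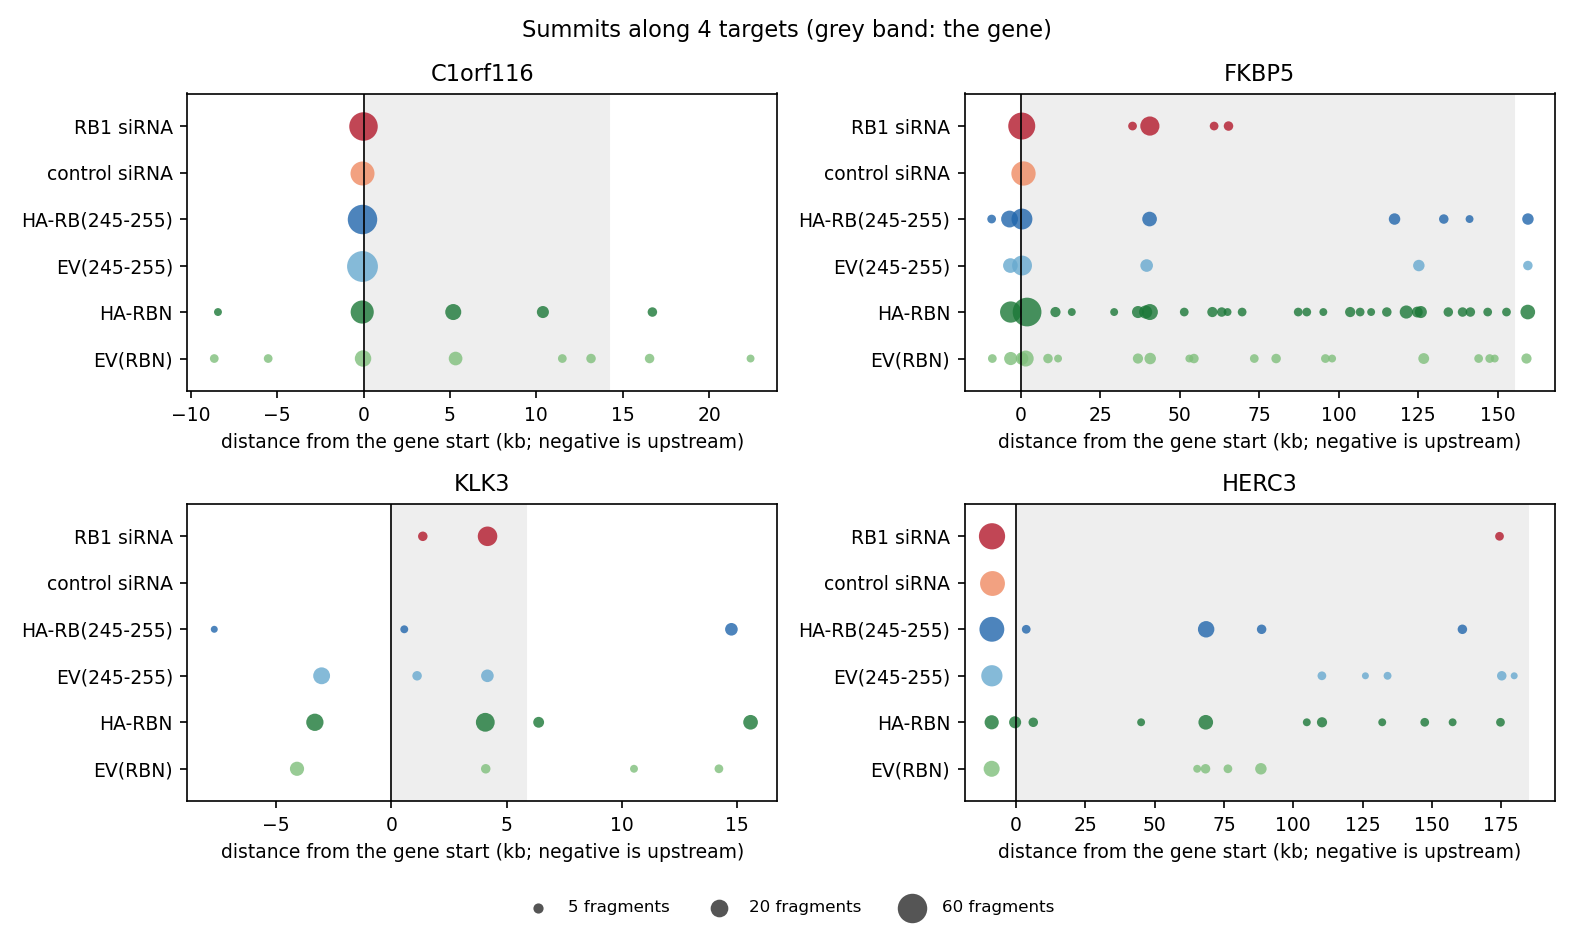
Summits along C1orf116, FKBP5, KLK3 and HERC3 by library; the horizontal axis is the distance from the gene start in kb (negative is upstream), the grey band is the gene, and dot size grows with the number of fragments. The C1orf116 start and the HERC3 upstream site have a dot in all 6 libraries, and the KLK3 body site has one in 4.

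Joined across libraries where summits lay within 500 bp, the summits in and near the 10 genes formed 189 sites. Of these, 139 were in 1 library, 32 in 2 and 18 in 3 or more (9.52%), where 7.34% of sites in or near any protein-coding gene had summits in 3 or more. Sites in at least 4 libraries numbered 13 (6.88%, against 3.97% over all genes), and 3 sites were in all 6 (1.59%, against 1.01%). The 3 sites in all libraries were the C1orf116 start, the NDRG1 upper end and the HERC3 upstream site.

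Each pair asked whether the siRNA against RB1, or the plasmid of its construct, changed the signal at the same place. A gene end was shared when both libraries had a summit at it within 500 bp of each other. The log2 ratio of enrichment was taken relative to the median over all shared gene ends of the pair, so 0 means the change of a typical gene end. In RB1 siRNA over control siRNA, 3 targets were shared. C1orf116 had a log2 ratio of 0.26 (95% counting interval −0.36 to 0.89), FKBP5 0.06 (−0.57 to 0.70) and NDRG1 −0.07 (−0.70 to 0.57). The control siRNA values of C1orf116 and FKBP5 each had a second possible solution, at 1530 and 1546 fragments, and the lower one was used. The median of the 3 was 0.06, against 0 over all 3254 shared gene ends by construction, whose SD was 0.42. None of the 3 passed 1 log2 unit, which 2.40% of all shared gene ends did.

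In HA-RB(245-255) over EV(245-255), 5 targets were shared. The log2 ratios were −0.14 (−0.67 to 0.39) at C1orf116, 0.16 (−0.66 to 0.98) at FKBP5 and −0.19 (−1.11 to 0.71) at NDRG1. SLC45A3 had 0.00 (−1.61 to 1.61) and STEAP4 0.22 (−1.57 to 2.07), both from 6 to 8 fragments a library. The median was 0, and none of the 5 passed 1 log2 unit, against 5.63% of all 4706 shared gene ends. In HA-RBN over EV(RBN), 2 targets were shared: C1orf116 at −0.20 (−1.07 to 0.73) and NDRG1 at 0.00 (−1.34 to 1.51). Neither passed 1 log2 unit, against 13.0% of all 7771 shared gene ends. All 10 intervals included 0, so no change at a target's gene end relative to other gene ends was detectable at these fragment numbers. The intervals of C1orf116, the narrowest, still allow changes of up to 0.89 log2 units up in the siRNA pair and 1.07 down in the RBN pair.

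Sites in bodies and flanks were compared in the same way, relative to the median of all shared body and flank summits. This comparison was chosen after the data were seen. In RB1 siRNA over control siRNA the HERC3 upstream site had a log2 ratio of −0.10 (−0.73 to 0.54), the NDRG1 body site −0.04 (−1.84 to 1.81) and the PMEPA1 flank site −0.26 (−1.68 to 1.16). In HA-RB(245-255) over EV(245-255) all 5 shared sites were above 0, from 0.47 to 0.81, and every interval included 0. The HERC3 upstream site was among them at 0.49 (−0.22 to 1.21). None of these 8 passed 1 log2 unit, which 6.27% and 9.15% of all such sites did in the siRNA and 245-255 pairs.

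In HA-RBN over EV(RBN), 21 sites were shared, with 13 above 0 and 7 below, a median of 0.42, and 4 past 1 log2 unit, against 15.1% of all 21759 shared body and flank summits. The direction of this tally turned with the centring. Relative to the median of shared gene ends, 6 of the 21 were above 0 and 15 below, the median was −0.28, and 6 were past 1 log2 unit, 5 of them lower in HA-RBN, where 31.5% of all shared body and flank summits were past it. The KLK3 body site had 23 fragments in HA-RBN and 4 in EV(RBN), a log2 ratio of 1.94 (0.39 to 3.93). The FKBP5 site near its start had 57 fragments in HA-RBN and 16 in EV(RBN), a log2 ratio of 1.25 (0.43 to 2.15), with the 2 summits 437 bp apart. Of the 21 intervals, these were the 2 that left out 0. The share of such intervals among all shared body and flank summits was not computed. Relative to shared gene ends, the log2 ratios were 1.24 (−0.31 to 3.24) at KLK3 and 0.55 (−0.27 to 1.45) at FKBP5, and both intervals included 0. The HERC3 upstream site went the other way, with 12 fragments in HA-RBN and 16 in EV(RBN), a log2 ratio of −1.0 (−2.21 to 0.17), or −1.70 (−2.91 to −0.52) relative to shared gene ends.

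**Figure D4:**
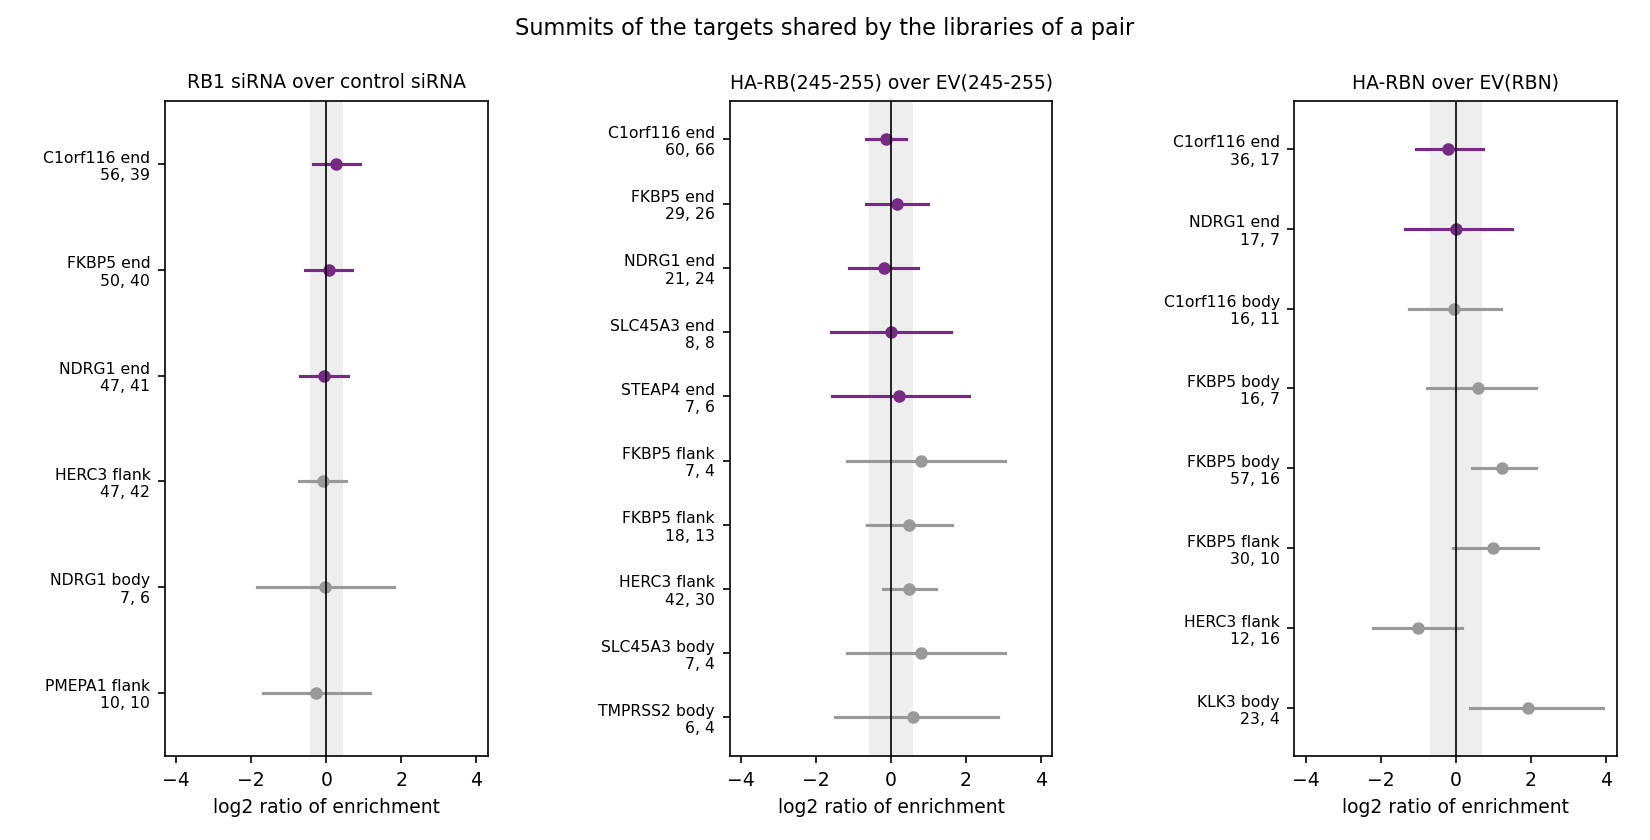
Log2 ratio of enrichment at summits shared by the libraries of each pair, with 95% counting intervals; purple marks gene ends and grey marks body and flank sites, the numbers under each name are fragments in the first-named and second-named library, and the grey band is 1 SD over all shared gene ends. For HA-RBN over EV(RBN) the body and flank sites with at least 20 fragments in all are drawn. All gene end intervals cross 0, and the KLK3 body site (23 and 4 fragments) and the FKBP5 body site with 57 and 16 fragments in the RBN pair do not as centred here, but do so relative to shared gene ends.

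A list of 27 other androgen response genes, all measured, was counted in the same way. It was chosen with earlier results of these data known, so its shares are a description. Whether they depart from those of all genes was not tested. Of these, 12 (44.4%) had a gene end summit in RB1 siRNA, where 33.5% of all genes did, and 14 (51.9%) in control siRNA, where 28.1% did. In HA-RB(245-255) 17 (63.0%) had one, beside 45.5% of all genes, and in EV(245-255) 19 (70.4%), beside 45.4%. In HA-RBN 22 (81.5%) had one, beside 73.4%, and in EV(RBN) 21 (77.8%), beside 60.2%. UAP1, an enzyme of amino sugar synthesis, PTGER4, a prostaglandin receptor, ELL2, an elongation factor, ZBTB10, a zinc finger factor, ABCC4, a drug and nucleotide exporter, MAF, a leucine zipper factor, and CENPN, a centromere protein, had one in all 6 libraries. That is 7 of 27 (25.9%), beside the 13.1% of all genes.

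ELL2 had 78 fragments in RB1 siRNA and 71 in control siRNA, 46 in HA-RB(245-255) and 48 in EV(245-255), and 41 in HA-RBN and 12 in EV(RBN). CENPN had 91 in RB1 siRNA and 85 in control siRNA, 28 in HA-RB(245-255) and 24 in EV(245-255), and 53 in HA-RBN and 18 in EV(RBN). Neither showed a ratio interval without 0 in any pair. ABCC4 had 22 fragments in RB1 siRNA and 7 in control siRNA, a log2 ratio of 1.39 (0.11 to 2.86) relative to shared gene ends. In this pair 2.40% of all shared gene ends were past 1 log2 unit. Of the ratios computed in the list, 9 in the siRNA pair, 15 in the 245-255 pair and 16 in the RBN pair, only the ABCC4 interval left out 0. The share of such intervals over all shared gene ends was not computed, and whether ABCC4 departs from it was not tested. The medians were −0.13, 0.09 and 0.29, with 4, 8 and 10 above 0 and 5, 6 and 6 below.

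The gene ends whose pattern over the 6 libraries was most like that of C1orf116 were TBCE, a tubulin folding cofactor, HEATR1, a ribosome biogenesis factor, and ZFAT, a zinc finger factor. Their Euclidean distances in log2 enrichment above each library's median were 0.61, 0.74 and 0.92, among 2625 genes compared, whose median distance was 3.23. TBCE had 66 fragments in RB1 siRNA and 41 in control siRNA, 60 in HA-RB(245-255) and 48 in EV(245-255), and 40 in HA-RBN and 14 in EV(RBN). HEATR1 had 60 in RB1 siRNA and 53 in control siRNA, 57 in HA-RB(245-255) and 50 in EV(245-255), and 46 in HA-RBN and 20 in EV(RBN). The likeness rests on 1 library a group and is a description.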

How the data were processed

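ChIP-seq peak lists of 6 immunoprecipitated libraries from 22RV1 cells were analysed, 1 library per group. Per the labels' protocols, cells were fixed in 1% formaldehyde for 10 min and libraries of 250 to 450 bp were made. MACS2 2.1.0, Bowtie 1.1.2, Trimmomatic 0.33, bcl2fastq 2.17 and build hg38 are named, without their roles, per the submitters' processing notes. Peaks were listed per library. The deposited lists have no header and hold, from their values, the authors' peak score, fold enrichment (a ratio of summit signal to local background), −log10 p-value, −log10 q-value and the summit's distance from the peak start. These are the authors' values and served to describe and filter peaks within a list. Total read numbers are not in the lists, so depth is given as background fragments per base.

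Fold enrichment and p-value together were solved for a whole number of fragments at each summit (tolerance 0.1). At least 99.95% of peaks in each list were solved, and 96.5% or more had a single solution. Where several solutions were possible the lowest was taken. The step was tested on simulated peaks. Gene positions and promoters came from RefSeq GRCh38.p14. Ratios carry exact conditional binomial 95% intervals, and shares carry Clopper-Pearson intervals. Intervals cover counting error only, since reads from PCR are not independent molecules. Python 3.11.15, numpy 2.4.6, pandas 2.3.3, scipy 1.17.1 and matplotlib 3.10.9 were used.

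All 10 targets are named. Of 27 other androgen response genes, those with a gene end summit in all 6 libraries are named, with the 3 genes most like the strongest target and neighbours within 1 kb of a counted summit. Examples among body and flank sites were chosen after their values were seen. The members, the lists and the alternatives were chosen with earlier results of these data known. Alternatives were other limits for gene ends, flanks and shared summits, stricter peak thresholds, lists of equal length, the next fragment solution and other centring of ratios. TMPRSS2 and NDRG1 had no promoter entry.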

Additional observations from a re-analysis of the deposited data

How the results depend on the processing

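Of 123 alternatives to counts, medians and ratios over the targets and the other response genes, 72 stayed within the limits set for a change, and the rest are given here, in the order RB1 siRNA, control siRNA, HA-RB(245-255), EV(245-255), HA-RBN, EV(RBN). Targets with a gene end summit numbered 0, 0, 1, 1, 5 and 2 at a −log10 q of at least 1.3, and 0, 0, 0, 0, 2 and 1 at a −log10 q of at least 5. With at least 10 fragments they numbered 3 in HA-RB(245-255), 2 in HA-RBN and 1 in EV(RBN), and with lists of equal length 4, 3 and 2 in these libraries. Other response genes numbered 0, 0, 2 and 1 in the first 4 libraries and 11 in EV(RBN) at 1.3, and 0, 0, 0, 0, 13 and 3 at 5. They numbered 12 in EV(245-255) and 5 in EV(RBN) with at least 10 fragments, and 10 in HA-RB(245-255) and 11 in EV(RBN) with lists of equal length. Summits in and near the targets numbered 0, 0, 0, 0, 8 and 2 at a −log10 q of at least 5. They numbered 8, 5, 7, 7, 15 and 6 with at least 10 fragments, and 8, 7, 16, 11, 18 and 9 with lists of equal length.

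The median number of fragments at target gene ends in control siRNA was 40, and would be 1530 with the next possible solution, which existed for 2 of its targets. Relative to library background alone, the median ratio in the 245-255 pair was −0.42, the median shift of all its gene ends, while in the siRNA and RBN pairs that shift was −0.12 and 0.49. With gene ends of 2 kb, KLK3 at 1.301 and SLC45A3 at 0.00 joined the shared targets of HA-RBN over EV(RBN). The centring on gene ends for body and flank sites was chosen after seeing the data. No paired analysis was possible because each group has 1 library and no result comes from a test. No library could be left out for the same reason. The fragment number limits every ratio: below about 10 fragments in a library, a change of 1 log2 unit lies within the counting interval. Such a change can also lie within it at higher numbers. Examples are C1orf116 in the RBN pair, with 36 and 17 fragments (−1.07 to 0.73), and NDRG1 in the 245-255 pair, with 21 and 24 (−1.11 to 0.71).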
